A study of Mus musculus with 15 samples.

Results

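The mammalian oxidative phosphorylation system is described here through 92 of the 16886 genes of the gene table. They are the genes whose symbol starts with Nduf, Uqcr, Sdh, Atp5, or Cox followed by a digit from 4 to 8, with a summed count of at least 100 over the 15 libraries. Of 97 matching symbols, 5 stayed under that minimum (Ndufa4l2, Cox6b2, Cox4i2, Ndufb4b and Ndufa11b), and none ended in -ps. Nearest to the minimum, Cox7a1 had 185 counts inside it and Cox6b2 had 68 outside it. By complex, 45 genes belong to complex I, 8 to complex II, 8 to complex III, 14 to complex IV and 17 to complex V, and Ndufa4 was counted with complex IV. The symbol rule also takes in 12 assembly factors (8 Ndufaf and 4 Sdhaf genes), which help to build a complex but are not part of it. The subunits encoded in mitochondrial DNA were not analysed here. All 92 genes passed the filter on low counts.

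Bulk RNA was sequenced from bone macrophages of mice with a VLDLR knockout (VLDLR_KO, 5 libraries), mice with a ROBO4 knockout (ROBO4_KO, 5 libraries) and wild-type mice (WT, 5 libraries). The strain was C57BL6J throughout, and the macrophages of every group had been kept for 14 days in culture with M-CSF, a growth factor for macrophages, at 20 ng/ml. VLDLR is a receptor for very-low-density lipoprotein and ROBO4 is a guidance receptor best known from blood vessel endothelium. The age of the mice, how the alleles were made and whether each library came from its own animal are not given in the sources used here, so the p-values measure the spread between these libraries. The sample codes have a digit before (7 libraries) or after (8 libraries) the letter B, a form whose meaning the labels do not give, and each genotype has libraries of both forms.

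Oxidative phosphorylation is the last stage of respiration in the inner mitochondrial membrane. Complex I takes electrons from NADH and complex II takes them from succinate, complex III passes them to cytochrome c, and complex IV hands them to oxygen. Complexes I, III and IV pump protons, and complex V, the ATP synthase, lets the protons flow back through a rotating ring and makes ATP. Macrophages draw on this system to different degrees in different activation states, and most of its subunits are encoded in the nucleus.

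Totals ran from 18132866 to 19005966 estimated counts per library. The 6 macrophage markers summed to between 18200 and 33100 CPM (counts scaled to a common library size by TMM, as a rate of the library total) in VLDLR_KO libraries, between 11800 and 14500 CPM in ROBO4_KO libraries and between 10300 and 16300 CPM in WT libraries. Of these sums, Lyz2 held 13200 to 26400 CPM in VLDLR_KO, 6200 to 9250 CPM in ROBO4_KO and 4990 to 10900 CPM in WT, while Adgre1 had 744 to 1050 CPM in VLDLR_KO, 1120 to 1170 CPM in ROBO4_KO and 1040 to 1120 CPM in WT. The 3 endothelial markers Pecam1, Cdh5 and Kdr summed to 9.28 to 28.3 CPM in VLDLR_KO, 4.55 to 58.6 CPM in ROBO4_KO and 10.1 to 52.6 CPM in WT, most of it Kdr. The 6 markers of fibroblasts and stroma summed to 1.9 to 19 CPM in VLDLR_KO, 4.94 to 122 CPM in ROBO4_KO and 24.8 to 167 CPM in WT libraries, and markers of muscle, neutrophils, B cells, T cells and red cells stayed at or under 3.75 CPM in sum. Of the 4 adipocyte markers, Fabp4, which macrophages also make, had 212 to 632 CPM in VLDLR_KO, 198 to 326 CPM in ROBO4_KO and 322 to 385 CPM in WT, and Adipoq, Plin1 and Cidec were at or under 0.335 CPM. The 4 osteoclast markers summed to 18.7 to 242 CPM in VLDLR_KO, 14.3 to 179 CPM in ROBO4_KO and 13.8 to 87.7 CPM in WT. By code form, these osteoclast sums were 13.8 to 24.8 CPM with the digit before the B and 58.2 to 242 CPM with it after. The part of these marker sums in the results below was not tested. In bulk RNA, fewer cells of a type and less RNA per cell cannot be told apart. Counts of the targeted genes were low in all groups (Vldlr at most 9 in VLDLR_KO and at most 38 elsewhere, Robo4 0 in all 5 ROBO4_KO libraries and 0 to 4 in WT), so they give little check of the labels.

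One library stood apart. In VLDLR_KO replicate 2, the median of the 92 genes was 0.66 above their mean over all libraries on the log2 scale, and 85 of the 92 genes were above their own mean. In the other 4 VLDLR_KO libraries this median was between -0.06 and 0.09, in ROBO4_KO libraries between -0.17 and 0.02 and in WT libraries between -0.17 and 0.14. The same library was the highest of the 15 for 73 of the 92 genes and for 3302 of the 11668 genes tested. By complex, its median deviation was 0.73 for complex I, 0.67 for complex III, 0.67 for complex IV and 0.61 for complex V, against 0.17 for complex II. The genotype comparisons, summed levels, non-overlapping groups, distances from the other members, transcripts, neighbouring genes and other gene lists below are therefore also given without this library, a choice made after seeing the data.

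**Figure D1:**
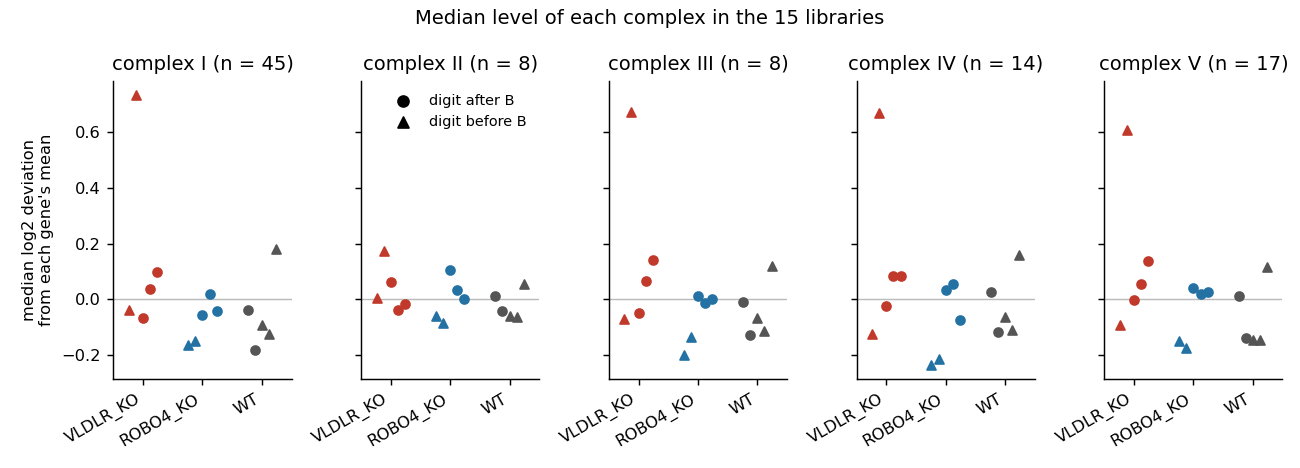
Median log2 deviation of the members of each complex from their mean over the 15 libraries, one point per library; circles are libraries with the digit after the B and triangles those with the digit before it. VLDLR_KO replicate 2 lies at 0.733 in complex I, 0.174 in complex II, 0.669 in complex III, 0.668 in complex IV and 0.607 in complex V. The other 14 libraries lie between -0.235 (ROBO4_KO replicate 1, complex IV) and 0.182 (WT replicate 5, complex I).

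The genes of oxidative phosphorylation have short transcripts, with a median effective length of 519 bases against 2701 bases over all tested genes, and VLDLR_KO replicate 2 held more counts of short transcripts in general. Among the 41 oxidative phosphorylation genes with an effective length under 500 bases its median deviation was 0.79 on the log2 scale, and among all tested genes of that class it was 0.88. In the class of 1000 to 2000 bases the medians were 0.25 for the 17 oxidative phosphorylation genes and 0.32 for all genes, and in the class of 2000 to 4000 bases they were 0.00 for the 6 oxidative phosphorylation genes and -0.08 for all genes. Across genes, Spearman's rho between deviation and effective length was -0.40 over the 92 genes and -0.50 over all 11668 genes in this library, a description across genes that share 1 library. The next lowest rho was that of WT replicate 5, at -0.32 over the 92 genes and -0.28 over all genes. The part of transcript length in the levels of these libraries was not tested beyond the fit with offsets for length given with the results.

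**Figure D2:**
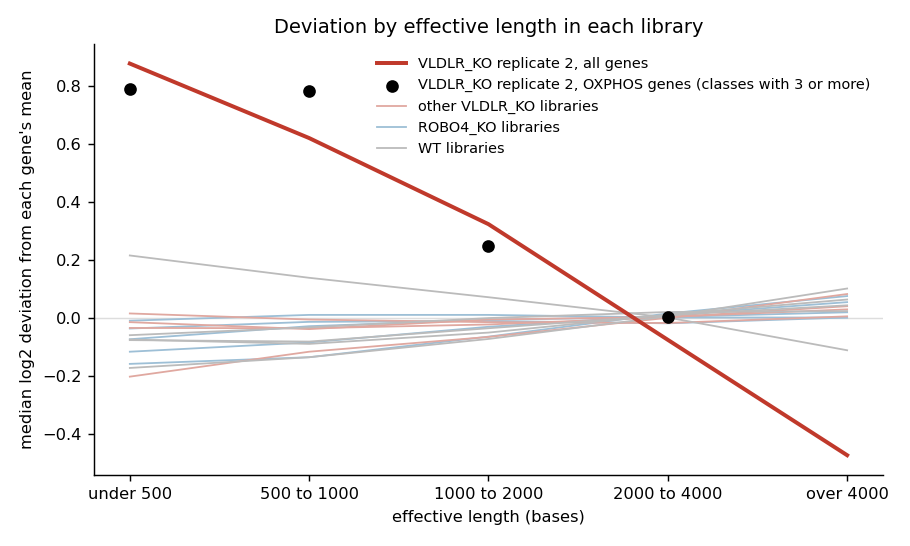
Median log2 deviation in each library by class of effective length (bases), lines for all tested genes of each library, VLDLR_KO replicate 2 in red, and black points for the oxidative phosphorylation genes of that library in classes with at least 3 of them. In VLDLR_KO replicate 2 the black points run from 0.79 under 500 bases to 0.00 at 2000 to 4000 bases, and the line runs from 0.88 to -0.47 over 4000 bases.

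Levels between genes were compared in FPKM, which divides by transcript length. In complex I, Ndufa3, a small accessory subunit, was the highest with a mean of 209.6 FPKM over the 15 libraries, and the assembly factor Ndufaf6 the lowest with 3.71 FPKM. In complex II, Sdhc, one of the pair of subunits that anchor the enzyme in the membrane, led with 124.6 FPKM, and the assembly factor Sdhaf3 was last with 6.04 FPKM. Uqcrb, a small matrix-side subunit, led complex III with 280.1 FPKM, and Uqcrq had 40.0 FPKM. Cox4i1, the usual form of the regulatory subunit IV, led complex IV with 440.7 FPKM, and Cox6a2, a form best known from heart and skeletal muscle, had 1.69 FPKM. In complex V the membrane subunit gene Atp5l led with 420.3 FPKM, and Atp5s, a gene for a coupling factor, had 3.57 FPKM.

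Isoforms known from other tissues were at low levels in these macrophages. Cox6a1, the form of most tissues, averaged 399 ± 92.2 FPKM in VLDLR_KO, 337.8 ± 39.4 in ROBO4_KO and 355.5 ± 52.2 in WT (SD, n = 5 each). Cox6a2 averaged 2.54 ± 1.04 FPKM in VLDLR_KO, 0.884 ± 0.843 in ROBO4_KO and 1.65 ± 0.430 in WT. Cox7a1, the heart and muscle form of subunit VIIa, averaged 2.62 ± 0.848 FPKM in VLDLR_KO, 3.35 ± 1.06 in ROBO4_KO and 4.0 ± 0.849 in WT. Cox4i2 and Cox6b2, forms known from lung and testis, had 32 and 68 counts over all 15 libraries together and fell under the count minimum. Of the 3 genes that encode the same proton-carrying c ring subunit of the ATP synthase, Atp5g2 was the highest, with 313.6 ± 50.8 FPKM in VLDLR_KO, 285.6 ± 22.6 in ROBO4_KO and 294.1 ± 23.2 in WT. Atp5g1 averaged 157.1 ± 35.9 FPKM in VLDLR_KO, 118.8 ± 11.5 in ROBO4_KO and 121.4 ± 19.5 in WT, and its intervals of mean ± SD overlapped those of Atp5g3 (129.5 ± 18.8 in VLDLR_KO, 109.4 ± 16.1 in ROBO4_KO and 111.4 ± 15.1 in WT) in every genotype.

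**Figure D3:**
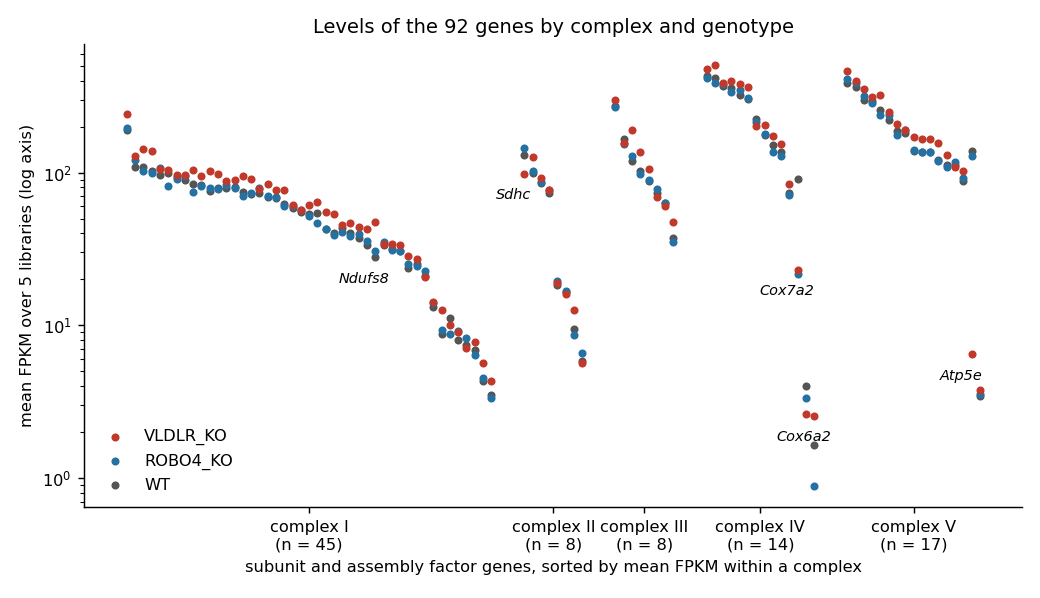
Mean FPKM of each of the 92 genes by complex and genotype (n = 5 libraries each) on a log axis. The genotypes are overlaid at each gene in different colours, and genes run from the highest to the lowest mean FPKM within a complex. Levels span from under 4 FPKM to over 400 FPKM, and Atp5e in VLDLR_KO, at 6.44 FPKM, lies apart from its level in ROBO4_KO (128.9 FPKM) and WT (138.1 FPKM).

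In VLDLR_KO against WT macrophages, 7 of the 92 genes passed the test, 4 higher (Ndufs8, Uqcr10, Ndufb10 and Ndufaf4) and 3 lower (Atp5e, Cox7a2 and Sdhc). The background was 16.8% of the 11668 genes tested (1957 genes), 7.74% higher and 9.03% lower, so the 7 of 92 genes called make a smaller share than over all genes. The test was edgeR's quasi-likelihood test on all 15 libraries with the code form as a term, with Benjamini-Hochberg adjustment over all tested genes and calls at an adjusted p under 0.05. The median log2 fold change of the 92 genes was 0.22, with 78 of 92 above 0, beside a median of 0.02 and 6148 of 11668 above 0 over all genes tested. Without VLDLR_KO replicate 2 the median was 0.05 with 58 of 92 above 0, and 7 genes passed, 3 higher and 4 lower, against a background of 18.1% (8.54% higher and 9.58% lower). Leaving out VLDLR_KO replicate 1 gave 13 calls and leaving out WT replicate 2 or WT replicate 3 gave 4. The number of all genes called moved as well when 1 library was left out. It ran from 1455 (without WT replicate 2) to 2269 (without VLDLR_KO replicate 4). With offsets for transcript length, a fit chosen after seeing the data, the median was 0.04 and 14 genes passed against a background of 22%, and DESeq2 called 12 against 21.9%.

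By complex, the median log2 fold change of VLDLR_KO over WT was 0.25 in complex I, 0.06 in complex II, 0.21 in complex III, 0.21 in complex IV and 0.24 in complex V. Without VLDLR_KO replicate 2, these medians were 0.06, 0.02, 0.06, 0.00 and 0.05 in the same order of complexes. The summed level of complex I was 2960 ± 622 FPKM in VLDLR_KO, 2509 ± 146 FPKM in ROBO4_KO and 2507 ± 294 FPKM in WT (SD, n = 5 libraries each). The highest VLDLR_KO library had 4063 FPKM of complex I and the next 2805 FPKM, within the WT range of 2198 to 2996 FPKM. The top of that range was WT replicate 5, the next WT library had 2469 FPKM, and the lowest VLDLR_KO library had 2596 FPKM. Complex II summed to 446.5 ± 35.9 FPKM in VLDLR_KO, 462.3 ± 21.2 in ROBO4_KO and 438.6 ± 20.3 in WT. The summed levels of the 3 genotypes overlapped in each of the 5 complexes. In complexes I and III, VLDLR_KO overlapped WT only through WT replicate 5. The sums of complex III were 1072 FPKM in that library, 907.5 FPKM in the next WT library and 944.6 FPKM in the lowest VLDLR_KO library. With VLDLR_KO replicate 2 left out, the VLDLR_KO sums were 2684 ± 99.4 FPKM for complex I and 431.1 ± 11.6 FPKM for complex II (SD, n = 4).

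**Figure D4:**
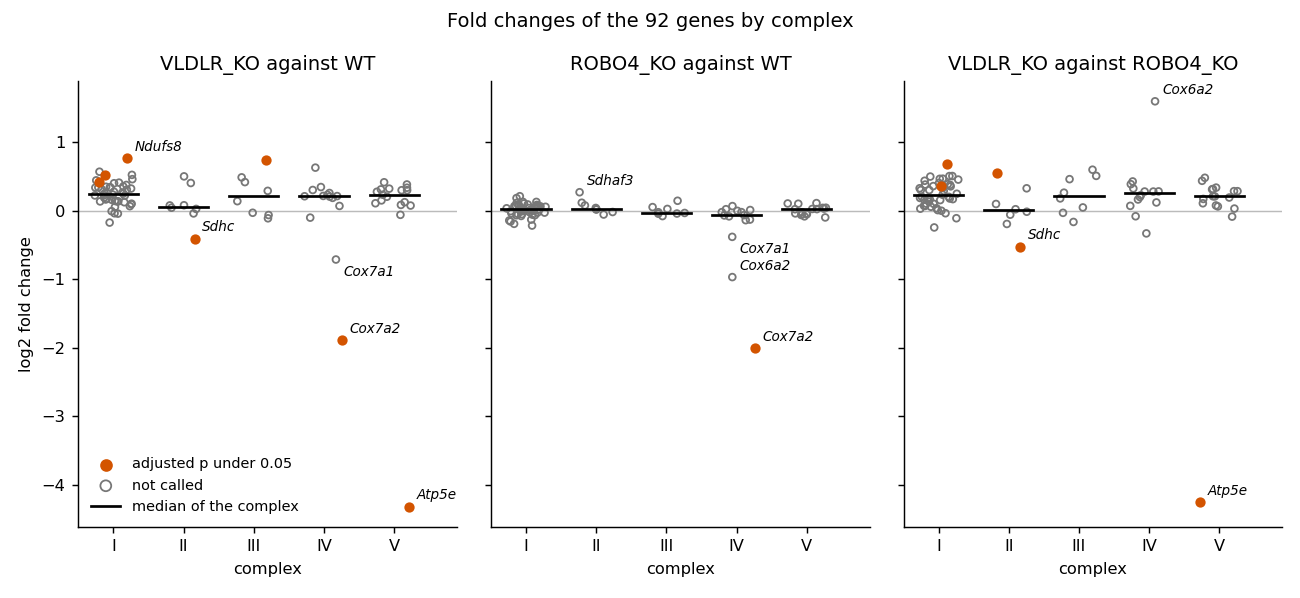
Log2 fold change of each of the 92 genes by complex for VLDLR_KO over WT, ROBO4_KO over WT and VLDLR_KO over ROBO4_KO; filled orange points have an adjusted p under 0.05 and the short lines are the medians of each complex. Atp5e at -4.32 and Cox7a2 at -1.89 lie far below the other genes for VLDLR_KO over WT, and Cox7a2 at -2.01 does so for ROBO4_KO over WT.

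The ATP synthase gene Atp5e was the farthest from the other members. It encodes the epsilon subunit, a small protein of the central stalk that turns inside the catalytic head, and lies on chr2:174461075-174464101, minus strand (GRCm38.p6, gene ID 67126). The 250 bases before its start are shown because this gene departs from the rest of its complex (RefSeq, GRCm38.p6, chr2:174464102-174464351, minus strand; capitals mark the CCAAT box, the SP1 motif GGGCGG and the ETS motif CCGGAAG on either strand).
Atp5e: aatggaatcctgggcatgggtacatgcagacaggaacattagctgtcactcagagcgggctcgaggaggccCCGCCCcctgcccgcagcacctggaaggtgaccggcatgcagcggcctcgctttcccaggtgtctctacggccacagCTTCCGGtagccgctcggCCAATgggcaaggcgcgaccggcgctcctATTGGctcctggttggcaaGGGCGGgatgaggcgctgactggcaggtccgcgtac
Atp5e had 0.706, 3.75, 1.16, 1.23 and 1.54 CPM in VLDLR_KO libraries, 27.4, 32.4, 32.1, 31.5 and 33.7 CPM in ROBO4_KO libraries and 33.4, 27.1, 33.6, 30.5 and 46.1 CPM in WT libraries. Every VLDLR_KO library was far below every library of both other genotypes, VLDLR_KO replicate 2 included, the highest of its 5. Atp5e fell by 4.32 on the log2 scale in VLDLR_KO against WT (SE 0.30, adjusted p 1.824e-07 by edgeR's quasi-likelihood test), a level 20.0 times lower. It fell by 4.26 in VLDLR_KO against ROBO4_KO (SE 0.30, adjusted p 2.181e-07 by edgeR), while ROBO4_KO over WT was -0.06 (adjusted p 1). Behind these values stand 13 to 63 counts per library in VLDLR_KO, 514 to 658 in ROBO4_KO and 475 to 866 in WT. When VLDLR_KO replicate 2 was left out, the log2 fold change of VLDLR_KO over WT was -4.87 (adjusted p 3.729e-09).

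The other 16 genes of complex V did not pass the test in any comparison of genotypes. Among the 5 genes of the catalytic head and central stalk, the log2 fold change of VLDLR_KO over WT ran from -4.32 for Atp5e to 0.34 for Atp5d, the delta subunit. The 11 genes of the membrane ring and stator ran from -0.06 for Atp5f1, the peripheral stalk subunit b, to 0.42 for Atp5g1, with a median of 0.30 that was 0.05 without VLDLR_KO replicate 2. Atp5j, the coupling factor 6 of the peripheral stalk, had 74.8, 109, 76.2, 78.3 and 79.8 CPM in VLDLR_KO and 62.4, 62.2, 71.4, 71.2 and 67.6 CPM in ROBO4_KO. All 5 VLDLR_KO libraries were above all 5 ROBO4_KO libraries for Atp5j, yet the difference did not pass the test.

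In complex IV, Cox7a2 was lower in both knockouts. It encodes the liver form of subunit VIIa, the form that most tissues use. It lies on chr9:79747212-79759853, minus strand (gene ID 12866), where it overlaps Tmem30a on the same strand. The 250 bases before its start are shown because it is the one gene of the set called in both knockouts (RefSeq, GRCm38.p6, chr9:79759854-79760103, minus strand; capitals mark GGGCGG).
Cox7a2: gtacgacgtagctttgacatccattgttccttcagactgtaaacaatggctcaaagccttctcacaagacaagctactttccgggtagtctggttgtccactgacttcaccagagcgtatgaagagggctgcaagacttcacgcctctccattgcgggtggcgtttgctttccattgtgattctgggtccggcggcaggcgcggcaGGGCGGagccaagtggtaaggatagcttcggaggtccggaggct
Cox7a2 had 11.1, 24.1, 8.88, 12.05 and 13.7 CPM in VLDLR_KO libraries, 11.6, 12.5, 12.5, 14.3 and 11.8 CPM in ROBO4_KO libraries and 47.1, 42.3, 52.2, 55.2 and 70.5 CPM in WT libraries. All 10 knockout libraries were below all 5 WT libraries, and the ROBO4_KO libraries lay within the range of the VLDLR_KO libraries. Cox7a2 fell by 1.89 on the log2 scale in VLDLR_KO against WT (SE 0.20, adjusted p 1.384e-05 by edgeR), a level 3.69 times lower. It fell by 2.01 in ROBO4_KO against WT (SE 0.20, adjusted p 8.247e-05 by edgeR), a level 4.02 times lower. Both comparisons share the 5 WT libraries, so the pair of falls is not independent. VLDLR_KO over ROBO4_KO was 0.12 (SE 0.20, adjusted p 0.718), which does not show that the knockouts have equal levels. Without VLDLR_KO replicate 2, VLDLR_KO over WT was -2.17 (adjusted p 5.224e-07) and ROBO4_KO over WT was -2.06 (adjusted p 1.678e-06).

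The relatives of Cox7a2 did not pass the test. Cox7a2l, a factor that joins complexes III and IV into supercomplexes, had 184.4, 302, 123.2, 177.5 and 153.1 CPM in VLDLR_KO and 208.5, 192.4, 202.5, 196 and 224.6 CPM in WT. One VLDLR_KO library, replicate 2, was above the WT libraries and the other 4 were below them. The log2 fold change was -0.10 (adjusted p 0.7013), and without replicate 2 it was -0.33 with an adjusted p of 0.04706 by edgeR, so the call rests on leaving out that library. Cox7a1 had 0.326, 0.476, 0.634, 0.725 and 0.477 CPM in VLDLR_KO, 0.426, 0.570, 0.778, 0.990 and 0.563 CPM in ROBO4_KO and 1.01, 0.685, 0.624, 0.952 and 0.746 CPM in WT. Its groups overlapped, with log2 fold changes of -0.71 for VLDLR_KO over WT (adjusted p 0.08974) and -0.38 for ROBO4_KO over WT (adjusted p 1). In FPKM, Cox7a2 averaged 23.2 ± 8.15 in VLDLR_KO, 21.6 ± 1.83 in ROBO4_KO and 91.3 ± 20.3 in WT, so it stayed above Cox7a1 in every genotype.

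The other abundant subunits of complex IV did not pass the test in any comparison of genotypes. Cox4i1 had 243.4, 493.6, 196.7, 234.1 and 234.5 CPM in VLDLR_KO, against 246.9 ± 21.6 CPM in WT (SD, n = 5), and a log2 fold change of 0.21 (adjusted p 0.4293). Replicate 2 alone was above the WT libraries. Cox8a, a small membrane subunit, averaged 505.7 ± 126.9 FPKM in VLDLR_KO, 384.5 ± 34.5 in ROBO4_KO and 415.6 ± 50.3 in WT. Ndufa4, once assigned to complex I and now counted with complex IV, averaged 377.9 ± 43.4 FPKM in VLDLR_KO, 347.7 ± 28.3 in ROBO4_KO and 324.2 ± 22.6 in WT.

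In complex II, Sdhc was lower in VLDLR_KO. Sdhc binds heme and ubiquinone together with Sdhd, and lies on chr1:171129157-171150603 (gene ID 66052). It had 86.2, 125.0, 89.9, 100.2 and 100.4 CPM in VLDLR_KO, 131, 133.4, 164.4, 150.2 and 143.9 CPM in ROBO4_KO and 139.7, 129.8, 122.5, 128.5 and 141.8 CPM in WT. VLDLR_KO replicate 2 was above the lowest WT library, and the other 4 VLDLR_KO libraries were below all WT and all ROBO4_KO libraries. Sdhc fell by 0.41 on the log2 scale in VLDLR_KO against WT (SE 0.10, adjusted p 0.01222 by edgeR), and without replicate 2 the value was -0.54 (adjusted p 0.0001117). It fell by 0.52 in VLDLR_KO against ROBO4_KO (SE 0.10, adjusted p 0.002314 by edgeR), where the groups did not overlap.

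The partners of Sdhc in the enzyme did not pass the test between genotypes. The 4 core genes of complex II had log2 fold changes of VLDLR_KO over WT from -0.41 for Sdhc to 0.41 for Sdhb, the iron-sulfur subunit. Sdhb had 118.9, 180.5, 91.9, 96.5 and 96.5 CPM in VLDLR_KO, 92.7, 86.4, 94.4, 93.2 and 90.1 CPM in ROBO4_KO and 89.6, 84.0, 81.4, 90.5 and 103.2 CPM in WT. VLDLR_KO replicates 1 and 2 were above every other library, and the other 3 lay within the WT range. Sdhaf1, the factor that helps to put iron-sulfur clusters into Sdhb, had 9.84, 18.02, 8.51, 7.70 and 7.84 CPM in VLDLR_KO, 6.82, 7.92, 5.72, 6.98 and 6.81 CPM in ROBO4_KO and 5.93, 7.59, 8.38, 7.14 and 8.85 CPM in WT. Its groups overlapped, and it was higher by 0.56 on the log2 scale in VLDLR_KO against ROBO4_KO (SE 0.17, adjusted p 0.04217 by edgeR), with 0.34 and an adjusted p of 0.05612 without replicate 2. That call was also lost without any 1 of the 5 ROBO4_KO libraries and without VLDLR_KO replicate 3 or 5.

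In complex I, Ndufs8 was higher in VLDLR_KO. It encodes a core iron-sulfur subunit on the electron path to ubiquinone, and lies on chr19:3908863-3912774, minus strand (gene ID 225887), where it overlaps Tcirg1 on the same strand. The 250 bases before its start are shown because Ndufs8 is the core subunit that departs from its arm (RefSeq, GRCm38.p6, chr19:3912775-3913024, minus strand; capitals mark CCAAT).
Ndufs8: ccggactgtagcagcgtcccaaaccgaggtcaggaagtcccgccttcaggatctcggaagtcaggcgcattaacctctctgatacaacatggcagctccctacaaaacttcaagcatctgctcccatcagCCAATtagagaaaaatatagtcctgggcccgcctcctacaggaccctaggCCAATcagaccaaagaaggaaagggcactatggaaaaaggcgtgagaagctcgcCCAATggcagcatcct
Ndufs8 had 26.5, 50.8, 26.9, 28.3 and 29.4 CPM in VLDLR_KO, 14.2, 19.4, 20.2, 23.1 and 24.4 CPM in ROBO4_KO and 22.2, 20.1, 16.8, 16.1 and 19.4 CPM in WT. All 5 VLDLR_KO libraries were above all 10 others, with replicate 2 far above the rest. Ndufs8 rose by 0.77 on the log2 scale in VLDLR_KO against WT (SE 0.19, adjusted p 0.01278 by edgeR) and by 0.68 against ROBO4_KO (SE 0.19, adjusted p 0.02478 by edgeR). Without replicate 2 these values were 0.46 (adjusted p 0.008811) and 0.42 (adjusted p 0.01199). Leaving out ROBO4_KO replicate 1, 2 or 3 ended the call for that pair. In the table the span of Tcirg1, a proton pump subunit of lysosomes and osteoclasts, covers that of Ndufs8, so the authors' counting could split reads between them and the level of Ndufs8 is uncertain to that extent. Tcirg1 had log2 fold changes of 0.35 in VLDLR_KO over WT (adjusted p 0.2135) and 0.61 in VLDLR_KO over ROBO4_KO (adjusted p 0.0372 by edgeR), and its part in the result was not tested.

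The other genes of complex I had smaller log2 fold changes of VLDLR_KO over WT than Ndufs8. Over the 7 core genes of the flavin and iron-sulfur arm, the log2 fold change of VLDLR_KO over WT ran from -0.04 for Ndufs1 to 0.77 for Ndufs8. The 29 accessory genes ran from -0.04 for Ndufs4 to 0.57 for Ndufa11, and 1 of them passed the test. The 8 assembly factors ran from -0.17 for Ndufaf5 to 0.41 for Ndufaf4. The accessory gene called was Ndufb10, a subunit of the membrane arm, with 45.9, 77.7, 41.1, 37.5 and 42.9 CPM in VLDLR_KO and 34.2, 28.3, 34.3, 34.2 and 45.6 CPM in WT. The groups overlapped for Ndufb10, which was 0.52 higher on the log2 scale (SE 0.15, adjusted p 0.02725 by edgeR) and 0.30 higher without replicate 2 (adjusted p 0.05386). Its call was lost without that library and without WT replicate 2, 3 or 4. Ndufaf4, an assembly factor that binds early intermediates of complex I, had 16.2, 18.9, 24.1, 18.12 and 21.4 CPM in VLDLR_KO, 17.3, 15.9, 13.6, 14.8 and 15.7 CPM in ROBO4_KO and 13.5, 14.0, 14.4, 15.6 and 17.2 CPM in WT. For Ndufaf4 the lowest VLDLR_KO library was below the highest library of WT and of ROBO4_KO, and the other 4 were above all WT libraries. Ndufaf4 rose by 0.41 against WT (SE 0.12, adjusted p 0.0274 by edgeR) and by 0.36 against ROBO4_KO (SE 0.12, adjusted p 0.04957 by edgeR), and without replicate 2 both calls stood, at 0.44 and 0.38. Leaving out WT replicate 1, 2 or 3 or VLDLR_KO replicate 5 ended the first of these, and the second ended without any 1 of the 5 ROBO4_KO libraries and without VLDLR_KO replicate 3 or 5.

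In complex III, Uqcr10, a small accessory subunit, was the gene called. It had 45.4, 102.9, 32.9, 44.8 and 54.7 CPM in VLDLR_KO, 31.8, 35.05, 39.5, 36.0 and 38.7 CPM in ROBO4_KO and 33.4, 33.4, 33.9, 32.9 and 35.7 CPM in WT. VLDLR_KO replicate 3 was just below the WT libraries, and the other 4 VLDLR_KO libraries were above all WT libraries. Uqcr10 rose by 0.75 on the log2 scale in VLDLR_KO against WT (SE 0.22, adjusted p 0.02868 by edgeR), with 0.38 and an adjusted p of 0.04322 without replicate 2. The call was lost without WT replicate 2, 3, 4 or 5 or VLDLR_KO replicate 5. Its span in the table overlaps Nf2 on the same strand, and Nf2 differed by 0.00 on the log2 scale (adjusted p 0.9977). The catalytic iron-sulfur subunit Uqcrfs1 had a log2 fold change of -0.06.

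**Figure D5:**
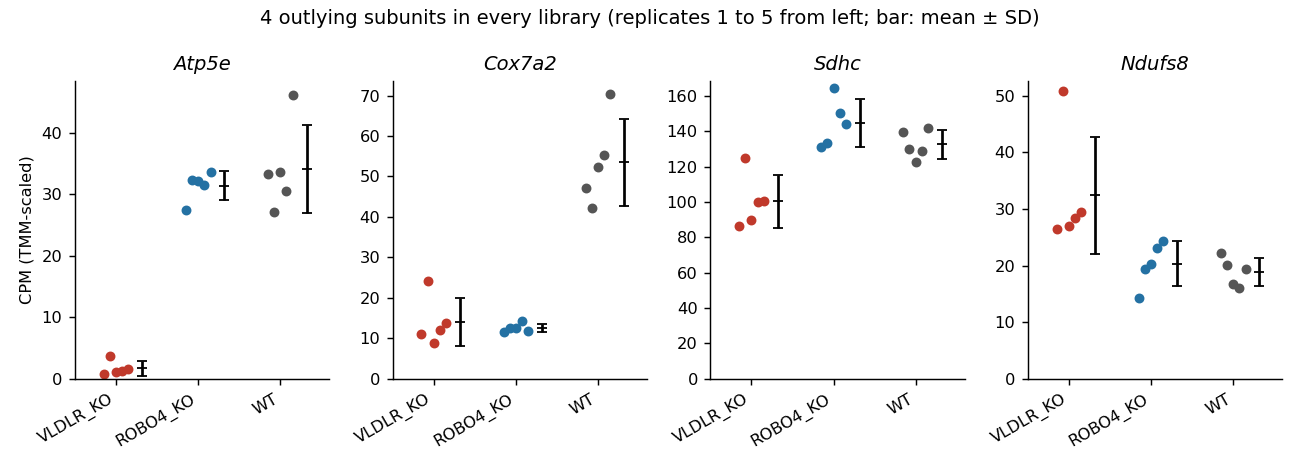
TMM-scaled CPM of Atp5e, Cox7a2, Sdhc and Ndufs8 in each library, VLDLR_KO, ROBO4_KO and WT from left to right, with the mean and SD of each genotype (n = 5). Atp5e is at 0.706 to 3.75 CPM in VLDLR_KO alone, Cox7a2 is at 8.88 to 24.1 CPM in VLDLR_KO and 11.6 to 14.3 CPM in ROBO4_KO, and every VLDLR_KO value of Ndufs8 is above every other value.

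In ROBO4_KO against WT, Cox7a2 was the only 1 of the 92 genes to pass the test, beside 0.643% of all genes tested (75 genes). No other member of any complex was called by edgeR or by DESeq2. By edgeR, 2 of the 92 genes, Cox7a2 included, had an unadjusted p under 0.05, beside 715 of 11668 genes tested. The median log2 fold change of the 92 genes was 0.01, with 49 of 92 above 0, and the median of all genes tested was 0.005. Without VLDLR_KO replicate 2 in the fit, Cox7a2 was again the 1 gene called, beside 1.06% of all genes, and the median of the 92 genes was -0.02 with 37 of 92 above 0. By complex the medians were 0.02 in complex I, 0.03 in complex II, -0.03 in complex III, -0.07 in complex IV and 0.02 in complex V. Without that library they were -0.02 in complex I, 0.02 in complex II, -0.05 in complex III, -0.10 in complex IV and -0.02 in complex V. In complex IV, 11 of 14 genes had a negative value, and only Cox7a2 among them passed the test. Cox6a2 had 0.107, 0.207, 0.111, 0.990 and 0.717 CPM in ROBO4_KO and 1.12, 0.742, 0.937, 0.529 and 0.746 CPM in WT, with 2 to 19 counts per ROBO4_KO library. The groups overlapped, 3 of the 5 ROBO4_KO libraries were below all WT libraries, and the log2 fold change was -0.97 (adjusted p 1).

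In VLDLR_KO against ROBO4_KO, 5 of the 92 genes passed, Ndufs8, Ndufaf4 and Sdhaf1 higher and Atp5e and Sdhc lower, beside 16% of all genes tested (7.57% higher and 8.44% lower). The median log2 fold change was 0.21 with 78 of 92 above 0, and without VLDLR_KO replicate 2 it was 0.07. Medians by complex were 0.23 in complex I, 0.00 in complex II, 0.22 in complex III, 0.25 in complex IV and 0.21 in complex V. Without replicate 2 they were 0.08 in complex I, -0.07 in complex II, 0.10 in complex III, 0.08 in complex IV and 0.06 in complex V. Without it, 4 genes passed against a background of 17.3%, and leaving out VLDLR_KO replicate 1 gave 13 calls, VLDLR_KO replicate 5 gave 3 and any 1 of ROBO4_KO replicates 1 to 3 gave 2. With 1 library left out, all genes called ran from 1298 (without ROBO4_KO replicate 2) to 2041 (without VLDLR_KO replicate 2). Offsets for length gave 17 calls against a background of 21.2%, and DESeq2 gave 10 against 20.4%. The widest difference that did not pass was that of Cox6a2, at 1.60 (SE 0.55, adjusted p 0.06061).

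Groups that did not overlap in CPM were few. In VLDLR_KO against WT they were those of Ndufs8 (higher), Cox7a2 and Atp5e (lower), beside 3.98% of all genes tested that were higher without overlap and 5.45% that were lower. In ROBO4_KO against WT it was Cox7a2 (lower), beside 1.12% of all genes. In VLDLR_KO against ROBO4_KO they were those of Ndufs8, Atp5j and Ndufaf6 (higher), Sdhc and Atp5e (lower), beside 3.51% and 4.88% of all genes. With VLDLR_KO replicate 2 left out, Sdhc and Cox7a2l joined the lower genes of VLDLR_KO against WT, beside 5.52% of all genes higher and 7.23% lower. Cox7a2 remained the one gene of ROBO4_KO against WT, beside 1.1% of all genes, and Sdha joined the higher genes of VLDLR_KO against ROBO4_KO, beside 4.77% of all genes higher and 6.33% lower.

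As a measure of how far a gene stood from the other members, its log2 fold change was set against the median and the scaled median absolute deviation (MAD) of the 92 genes, with 3 scaled MADs as the limit. In VLDLR_KO over WT, the genes beyond it were Atp5e at -25.4, Cox7a2 at -11.8, Cox7a1 at -5.24, Sdhc at -3.53 and Ndufs8 at 3.06, and Uqcr10 at 2.93 was just short of it. In ROBO4_KO over WT they were Cox7a2 at -24.0, Cox6a2 at -11.6, Cox7a1 at -4.64 and Sdhaf3, an assembly factor of complex II, at 3.12. In VLDLR_KO over ROBO4_KO they were Atp5e at -20.7, Cox6a2 at 6.46 and Sdhc at -3.39. When VLDLR_KO replicate 2 was left out, Ndufaf4 at 3.26 and Cox7a2l at -3.24 were also beyond the limit in VLDLR_KO over WT, with Atp5e at -41.2, Cox7a2 at -18.6, Cox7a1 at -6.77, Sdhc at -4.97 and Ndufs8 at 3.44. The genes beyond it in ROBO4_KO over WT were then Cox7a2 at -21.5, Cox6a2 at -10.8, Cox7a1 at -3.83 and Sdhaf3 at 3.11, and those in VLDLR_KO over ROBO4_KO were Atp5e at -30.5, Cox6a2 at 7.99 and Sdhc at -4.49. Cox7a1, Cox6a2 and Sdhaf3 are low in counts and did not pass the test in any of these comparisons. Some other fits called Cox6a2 and Cox7a1, as given with the alternatives.

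Counts per transcript were tested in the same way. Of 30096 transcripts tested, 132 belong to the 92 genes. Those called were 4 lower in VLDLR_KO against WT (background of lower calls 2.11%), 1 lower in ROBO4_KO against WT (background 0.0565%) and 3 lower in VLDLR_KO against ROBO4_KO (background 2.08%). They were transcripts of Atp5e, Cox7a2, Sdhc and Ndufs1 in the first, of Cox7a2 in the second and of Atp5e and Sdhc, with 2 of Sdhc, in the third. Without VLDLR_KO replicate 2, 3 were lower in VLDLR_KO against WT (Atp5e, Cox7a2 and Sdhc, background 2.23%), 1 in ROBO4_KO against WT (Cox7a2, background 0.0704%) and 3 in VLDLR_KO against ROBO4_KO (background 2.43%). The single Atp5e transcript had 1.67 ± 1.17 CPM in VLDLR_KO, 31.7 ± 2.51 CPM in ROBO4_KO and 34.2 ± 7.31 CPM in WT. The single Cox7a2 transcript had 13.9 ± 5.75 CPM in VLDLR_KO, 12.7 ± 1.10 CPM in ROBO4_KO and 53.6 ± 10.9 CPM in WT. For Ndufs1, the largest core subunit of the iron-sulfur arm, a minor transcript was lower, with 9.43 ± 1.47 CPM in VLDLR_KO and 14.2 ± 2.92 CPM in WT and a log2 fold change of -0.64 (adjusted p 0.03911 by edgeR), while the gene as a whole did not pass. Without replicate 2 the transcript had -0.63 (adjusted p 0.06491). The main transcript of Ndufs8 had 23.8 ± 8.03 CPM in VLDLR_KO, 14.5 ± 2.91 CPM in ROBO4_KO and 13.3 ± 2.61 CPM in WT, and did not pass the test (0.83 for VLDLR_KO over WT, adjusted p 0.05825 by edgeR).

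The genes around the outlying members were examined in a window of 2 Mb to either side. Over all genes tested, 16.8% passed in VLDLR_KO against WT and 0.643% in ROBO4_KO against WT. Around Sdhc, 30 of 54 tested genes (55.6%) passed in VLDLR_KO against WT, 8 higher and 22 lower, and 1 of 54 passed in ROBO4_KO against WT. Around Atp5e, 3 of 24 passed in VLDLR_KO against WT, and its nearest neighbour Prelid3b differed by -0.18 on the log2 scale (adjusted p 0.4035). Around Cox7a2, 0 of 13 tested genes passed in either knockout against WT. In VLDLR_KO against ROBO4_KO, 3 of 13 passed (23.1%), all lower, beside 16% of all genes. Myo6 was among them, at -1.21 (adjusted p 0.008997 by edgeR), and was at -0.45 in VLDLR_KO and 0.76 in ROBO4_KO over WT. Col12a1 differed by -1.78 in VLDLR_KO over WT (adjusted p 0.07969 by edgeR) and by -0.59 in ROBO4_KO over WT. Senp6 differed by 0.04 in VLDLR_KO over WT (adjusted p 0.8171) and by -0.01 in ROBO4_KO over WT (adjusted p 1). In the table the span of Tmem30a covers that of Cox7a2 on the same strand, so the authors' counting could split reads between them. The level of Cox7a2 is uncertain to that extent. Tmem30a was at -0.36 on the log2 scale in VLDLR_KO over WT (adjusted p 0.06072 by edgeR) and -0.04 in ROBO4_KO over WT (adjusted p 1). The part of Tmem30a in the result for Cox7a2 was not tested. Around Ndufs8, 8 of 86 passed (9.3%). With VLDLR_KO replicate 2 left out, 30 of 54 passed around Sdhc, 3 of 24 around Atp5e and 10 of 88 around Ndufs8, beside 18.1% of all genes. The 92 genes include 25 that overlap another gene of the table.

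Motifs were counted on both strands in the 250 bases before each start, for the 77 of the 92 genes with an entry in the RefSeq promoter table and for its 27025 genes. The NRF1 motif (GCGC, then any 2 bases, then GCGC) was present in 16 of the 77 genes (20.8%) and in 5.64% of all genes. CCGGAAG, the ETS motif bound by GABP, was present in 16 of the 77 genes (20.8%) and in 7.83% of all genes. CCAAT was present in 42.9% and 37.5%, and GGGCGG, the SP1 motif, in 42.9% and 35.4%. Of the outlying genes, Atp5e held 2 CCAAT, 2 GGGCGG and 1 CCGGAAG, Cox7a2 held 1 GGGCGG and Ndufs8 held 3 CCAAT. A match is a description of letters and not of binding.

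The form of the sample code was compared as well, since each genotype has libraries of both forms. Between libraries with the digit after the B and those with it before, 8 of the 92 genes passed, 5 higher and 3 lower, beside 38.1% of all genes (18.8% higher and 19.3% lower). The higher ones were Atp5a1 and Atp5b, the alpha and beta subunits that form the catalytic head, at 0.24 and 0.20 on the log2 scale (adjusted p 0.001403 and 0.02363 by edgeR), with Ndufs1 at 0.19, Sdhd at 0.17 and the flavoprotein gene Sdha at 0.14. The lower ones were the assembly factors Ndufaf3 at -0.68 and Sdhaf1 at -0.42 and the accessory subunit gene Ndufc2 at -0.37. The sums of osteoclast markers also split by form, at 13.8 to 24.8 CPM with the digit before the B and 58.2 to 242 CPM with it after. The part of that split in these calls was not tested. When VLDLR_KO replicate 2 was left out, 17 of the 92 genes passed, 15 higher and 2 lower, beside 40.1% of all genes, and without WT replicate 1, WT replicate 5, ROBO4_KO replicate 2 or VLDLR_KO replicate 5, 5 passed. With 1 library left out, all genes called ran from 3911 (without ROBO4_KO replicate 2) to 4718 (without VLDLR_KO replicate 2).

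Within the code forms, the median log2 fold change of the 92 genes for VLDLR_KO over WT was 0.34 in libraries with the digit before the B, where VLDLR_KO replicate 2 is 1 of 2 VLDLR_KO libraries, and 0.13 in those with the digit after it. Of the 92 genes, 5 passed with the digit before the B (background 20.5%) and 8 with the digit after it (background 15.7%). For ROBO4_KO over WT these medians were -0.13, with 11 of 92 genes above 0, and 0.09, with 74 of 92 above 0. The background of calls was 0.168% with the digit before the B, and 1.6% with the digit after it, where Cox7a2 passed. No member passed the test of a difference between the forms in the ROBO4_KO effect, by edgeR, with 0.403% of all genes called. At an unadjusted p under 0.05 there were 0 of 92, beside 599 of 11668 genes tested. Without VLDLR_KO replicate 2, 0 passed by edgeR, where 0.501% of all genes were called. At an unadjusted p under 0.05 by edgeR there were then 16 of 92, beside 1167 of 11775 genes tested. The median difference of the 92 genes (digit after the B minus digit before it) was 0.24 in place of 0.23, with 88 of 92 above 0 in both. Over all genes tested it was 0.01 in the 15 libraries, with 6047 of 11668 above 0. WT replicate 5, at a median deviation of 0.14 over the 92 genes, has the digit before the B, and its part was not tested. For the VLDLR_KO effect against WT, Ndufs1 passed (background 15.2%). It had 78.0, 67.1, 95.8, 95.8 and 99.7 CPM in VLDLR_KO and 91.6, 87.2, 85.1, 85.3 and 85.4 CPM in WT. The first 2 VLDLR_KO libraries, with the digit before the B, were below all WT libraries, and the other 3 were above them. The effect was 0.35 larger on the log2 scale with the digit after the B (SE 0.11, adjusted p 0.0491 by edgeR), and 0.26 without replicate 2 (adjusted p 0.08067). Without replicate 2, which leaves replicate 1 as the one VLDLR_KO library of its form, Atp5b passed in place of Ndufs1, at 0.41 (adjusted p 0.03873 by edgeR, background 9.78%), and the median difference of the 92 genes turned to 0.16, with 78 of 92 above 0, against -0.22, with 74 of 92 below 0, in all 15 libraries. For VLDLR_KO against ROBO4_KO, Sdhb passed at -0.70 (SE 0.20, adjusted p 0.04909 by edgeR, background 8.97%), and without replicate 2 the value was -0.37 (adjusted p 0.1681, background 2.56%). Of the 10 libraries in each of these comparisons, leaving out any 1 but VLDLR_KO replicate 1 ended the call of Sdhb, and the same held for Ndufs1.

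Beyond the 92 genes, lists of other mitochondrial genes were read in the same fit. Of 41 tested assembly factors of the respiratory complexes, 4 rose and 2 fell in VLDLR_KO against WT. Lyrm7, the factor that guides the iron-sulfur subunit into complex III, had 0.259 ± 0.223 CPM in VLDLR_KO and 1.24 ± 0.159 CPM in WT (SD, n = 5 each), and fell by 2.43 on the log2 scale (adjusted p 0.002088 by edgeR). Atpaf2, an assembly factor of the ATP synthase head, averaged 26.0 ± 4.38 CPM in VLDLR_KO and 17.5 ± 2.74 CPM in WT, and rose by 0.50 (adjusted p 0.0004614 by edgeR). Tmem126b, a complex I assembly factor, fell by 0.58. With VLDLR_KO replicate 2 left out, 3 of the 41 rose and 3 fell, with Lyrm7 at -2.09, Atpaf2 at 0.51 and Tmem126b at -0.50. Of 78 mitochondrial ribosome genes, 9 rose and 2 fell, with a median of 0.21, and without VLDLR_KO replicate 2, 4 rose and 2 fell, with a median of 0.07. Mrps10 averaged 25.3 ± 2.65 CPM in VLDLR_KO and 15.5 ± 1.99 CPM in WT.

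Of 19 regulators of mitochondrial genes, 3 rose and 1 fell in VLDLR_KO against WT. Polg, the mitochondrial DNA polymerase, averaged 58.5 ± 7.39 CPM in VLDLR_KO and 38.2 ± 2.65 CPM in WT and rose by 0.62 (adjusted p 0.0009518 by edgeR). Ppargc1b, a coactivator of respiratory genes, rose by 0.68 and lost its call without replicate 2 (adjusted p 0.05543). Pparg, a nuclear receptor for fatty acids, averaged 60.7 ± 15.3 CPM in VLDLR_KO and 95.9 ± 16.2 CPM in WT and fell by 0.77 (adjusted p 8.804e-05 by edgeR). Of 18 genes of the citric acid cycle, 2 rose, Idh2 by 0.49 and Fh1 by 0.48. Of 13 genes of cytochrome c, ubiquinone and electron transfer flavoprotein, Cyc1, the cytochrome c1 of complex III, rose by 0.41, and Etfdh and Etfa fell by 0.29 and 0.20. Without replicate 2, 2 regulators rose and 1 fell, 3 genes of the citric acid cycle rose and 1 fell, and 1 gene of the cytochrome c list rose and 3 fell, where the median of the cytochrome c list was -0.09 against 0.10 in all libraries. In ROBO4_KO against WT, 0 genes of these 5 lists passed by edgeR and 0 by DESeq2. At an unadjusted p under 0.05 by edgeR there were 2 mitochondrial ribosome genes and none in the other lists, beside 715 of 11668 genes tested. These counts stand beside a background of 16.8% (7.74% higher and 9.03% lower) in VLDLR_KO against WT. Without VLDLR_KO replicate 2 that background was 18.1% (8.54% higher and 9.58% lower). In ROBO4_KO against WT it was 0.643%.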

How the data were processed

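Total RNA was sequenced from 15 libraries (5 per genotype) as pairs of 150-base reads on a BGISEQ-500, per the labels. The submitters' processing notes list HISAT and Bowtie2 and the build GRCm38.p6; versions, the quantifier and the annotation are not given in the sources used here. The deposited tables hold, per the file headers, read counts per gene and transcript, and these are estimated counts (92.6% whole to within 1e-06) that the authors did not normalize. Further columns are FPKM values made by the authors, a unit inferred from the values because their headers name none. The authors' deposited table also holds log2 fold changes and q-values, which were not used in any result.

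Estimated counts were rounded and tested with edgeR 4.0.16 (R 4.3.3, limma 3.58.1) after TMM scaling and filterByExpr by genotype, which left 11668 of 16886 genes and 30096 of 54327 transcripts. The design was genotype plus code form. Adjusted p-values are Benjamini-Hochberg over all tested genes. CPM were computed from the TMM-scaled library sizes. Effective length was recovered from count and FPKM. Alternatives were DESeq2 1.42.0, limma on log2(FPKM + 0.5), other scalings and filters, fits within code form, a replicate block and each library left out. Scripts were tested on simulated data. The labels do not say whether libraries with the same code form and digit in the sample code are paired across genotypes. Over 12 such pairs the correlations of deviations ran from -0.464 to 0.343, and 4 were over 0.1. VLDLR_KO replicate 2 and WT replicate 5 were such a pair, at 0.284. These correlations cannot settle whether a pairing exists.

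Members named in the text are those called between genotypes, beyond 3 scaled MADs, highest or lowest in their complex, in tissue isoform families, called between code forms, or called in an interaction; Atp5j and genes at the ends of a range were named after their values were seen. The members and the gene lists were chosen with earlier results of these data known.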

Additional observations from a re-analysis of the deposited data

Results flagged for a closer look

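Within each genotype of 5 libraries, the highest or lowest library was set against the nearest of the others for the named genes and the complex medians. A gap over 0.71 of the whole range was found in 18 of 120 groups examined, and 17 of the 18 were VLDLR_KO replicate 2. About 5% of independent groups would show such a gap by chance. These groups share the same 15 libraries, and some genes were named because they were called or outlying. The 18 groups can therefore not be set against that rate. In that library the median deviation was 0.656 over all 92 genes, 0.733 in complex I, 0.669 in complex III and 0.668 in complex IV, against 0.090, 0.098, 0.141 and 0.085 in VLDLR_KO replicate 5, the next library in each case.

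In complex V, VLDLR_KO replicate 2 had 3.746 CPM of Atp5e, 150.7 CPM of Atp5g1, 216.1 CPM of Atp5g2 and 250.4 CPM of Atp5l, against 1.536, 96.86, 144.2 and 150.8 CPM in replicate 5. In complex IV it had 493.6 CPM of Cox4i1 (next library 243.4), 231.6 CPM of Cox6a1 (141.1), 184.6 CPM of Cox6b1 (113.2) and 311.3 CPM of Cox8a (174.1). In complexes I to III it had 63.2 CPM of Ndufa3 (43.13), 77.71 CPM of Ndufb10 (45.86), 50.78 CPM of Ndufs8 (29.39), 18.02 CPM of Sdhaf1 (9.835) and 103.1 CPM of Uqcrq (62.39). For Atp5e this library was the highest of its genotype and still under 4 CPM. The one other case was Ndufaf6 in ROBO4_KO replicate 4, with 2.71 CPM below 3.09 CPM in replicate 1.

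The genotype effect differed between code forms, by the interaction term in edgeR, for Ndufs1 in VLDLR_KO against WT, where the log2 effect was 0.352 larger with the digit after the B. It also differed for Sdhb in VLDLR_KO against ROBO4_KO, by -0.704. Both calls were lost without VLDLR_KO replicate 2. Each code form has 2 or 3 libraries of a genotype.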

How the results depend on the processing

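Over 21 alternatives, Atp5e, Cox7a2 and Ndufs8 kept their calls in VLDLR_KO against WT, as did Atp5e against ROBO4_KO. Cox6a2 gained a call in VLDLR_KO against ROBO4_KO in 5 of the 21, DESeq2 and limma among them. Cox7a1 gained a call in VLDLR_KO against WT in 2 of the 21, limma and length offsets. Within the digit before the B, Sdhc lost its calls (adjusted p 0.221 against WT, 0.239 against ROBO4_KO), as did Cox7a2 in ROBO4_KO against WT (0.0652, at a log2 fold change of -2.30), and Cox7a2l in VLDLR_KO over WT reversed to 0.238; the cause was not tested.

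For VLDLR_KO against WT, members called were 14 with length offsets (chosen after seeing the data; median 0.039), 4 with 2 genotypes alone and 12 with DESeq2. Genes called were 1086 without the code-form term. For ROBO4_KO against WT, genes called were 39 without that term, 20 within the digit before the B (0 members), 188 within the digit after it, 165 with 2 genotypes alone and 172 with DESeq2. For VLDLR_KO against ROBO4_KO, members called were 3 without assembly factors, without the code-form term, within either form, with upper quartile scaling and without the filter, 2 with the replicate block and with 2 genotypes alone, 17 with length offsets and 10 with DESeq2; genes were 888, 1141 and 1144 without the term, with the block and with 2 genotypes alone, and the median was 0.518 within the digit before the B. Members called between forms were 5 without the filter and 37 with length offsets. With length offsets, 5180 of all 11668 genes tested were called between forms. For interactions, VLDLR_KO against WT gave 0 members without the filter and 8 with length offsets (2688 genes), and VLDLR_KO against ROBO4_KO gave 0 with RLE scaling and 3 with length offsets.

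Leaving out 1 of the 10 libraries compared (1 of 15 for the code form), VLDLR_KO against WT called 1455 to 2269 genes and 4 to 13 members (median 0.054 to 0.307), ROBO4_KO against WT 55 to 61 genes and 1 member (median -0.018 to 0.048), VLDLR_KO against ROBO4_KO 1298 to 2041 genes and 2 to 13 members (median 0.071 to 0.285), and the code form 3911 to 4718 genes and 5 to 17 members. Interactions ran from 598 to 5090 genes and 0 to 53 members for VLDLR_KO against WT, 32 to 45 genes and 0 members for ROBO4_KO against WT, and 194 to 5262 genes and 0 to 72 members for VLDLR_KO against ROBO4_KO; the highest of both VLDLR_KO interactions are without VLDLR_KO replicate 1, which leaves replicate 2 alone in its form. Without VLDLR_KO replicate 2, which shares the fit, ROBO4_KO against WT called 125 genes (median -0.024) and its interaction 59. The replicate block (libraries of the same code form and digit) gave 8, 1 and 2 members in VLDLR_KO against WT, ROBO4_KO against WT and VLDLR_KO against ROBO4_KO. Summing Ndufb4 with its copies gave 0.24 (adjusted p 0.2407). Genes of a few counts per library, such as Cox6a2, are limited by depth.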
